A study of Mus musculus with 18 samples.

Results

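The Nodal pathway was followed through 10 genes in FVB/N embryonic stem (ES) cells: the ligand Nodal, its antagonists Lefty1 and Lefty2, the co-receptor Cripto (Tdgf1), the activin receptors Acvr1b, Acvr2a and Acvr2b, the signal transducers Smad2 and Smad3, and their DNA-binding partner Foxh1. All probe sets for which the annotation of the chips gives one of these symbols and no other were taken, whatever their signal. They number 19 among the 36701 probe sets that are not controls, and each of the 10 genes has at least 1. On these chips a transcript is read by a set of short oligonucleotides, and the signal intensity of the set has no unit. The mean signal was under 200 in 9 of the 19, and these are called dim below.

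Nodal is a secreted growth factor of the TGF-β family. It binds a complex of a type II activin receptor and the type I receptor Acvr1b, for which it needs a co-receptor such as Cripto. The type I receptor then phosphorylates Smad2 and Smad3, which enter the nucleus with Smad4 and act on DNA with partners such as Foxh1. Lefty1 and Lefty2 are themselves induced by Nodal signalling in the early mouse embryo and block it outside the cell, which makes a feedback loop. Undifferentiated mouse ES cells are known to express Nodal, Cripto and the Lefty genes.

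RNA came from 3 separately grown dishes of wild-type (WT) FVB/N cells kept in LIF, the cytokine that activates STAT3, and from 3 dishes of one transgenic line of the same strain that overexpresses STAT3-MER, kept without LIF in 4-hydroxytamoxifen (OHT). The transgene, driven by a chicken β-actin promoter, encodes mouse STAT3 fused to an altered ligand-binding part of the estrogen receptor that responds to OHT. Transgene, LIF and OHT change together between the groups and cannot be told apart, and each group is one line, so the p-values measure the spread between dishes. The lines were grown on mitotically arrested mouse fibroblasts of another strain, and fewer cells of a type cannot be told apart from less RNA per cell.

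Each dish was read on the chips U74Av2, U74Bv2 and U74Cv2, which gives 18 arrays whose trimmed means lay between 500.1 and 500.3. The transgene was seen with 1 probe set of Esr1 (93945_at), at 40.3, 19.7 and 9.25 in the WT dishes and 25848, 25568 and 31548 in the STAT3-MER dishes. Its log2 difference was 9.01 (standard error 0.24, adjusted p = 7.58e-06, limma with Benjamini-Hochberg adjustment). It was the single probe set of the 36701 past the threshold of 0.05, which is 0.00272% of them. The probe sets of Stat3 thus did not pass, with log2 differences of -0.24 to 0.51. The other Esr1 probe sets had -0.68 to 0.38. Markers of undifferentiated ES cells were bright in both groups, with a summed signal on U74Av2 of 39337 to 48591 in WT and 40727 to 52886 in STAT3-MER dishes. Markers of feeder fibroblasts were present too, with a sum of 30923, 15090 and 34426 in WT dishes 1 to 3 and of 9212, 37991 and 24706 in STAT3-MER dishes 1 to 3, and the collagen gene Col1a2 (101130_at) ranged from 1978 to 12565. Numbers 1 and 2 of the WT dishes may not match between chips. Over 794 genes read on both chips, deviations of dishes from their group mean were compared. Those of WT dish 1 of U74Av2 had a correlation of -0.25 with those of WT dish 1 of U74Bv2 and of 0.29 with those of WT dish 2. On U74Cv2 the values were -0.14 and 0.24 over 815 genes, so dishes are set side by side below within a chip only. WT dish 3 of U74Av2 had its highest correlation with WT dish 3 of the other chips, 0.09 on U74Bv2 and 0.21 on U74Cv2. It may thus be the same dish on these chips, which was not tested.

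None of the 19 probe sets differed between the groups by limma after adjustment over all probe sets, with an adjusted p of at least 0.9996 for each. At an unadjusted p under 0.05, 2 of them were lower in STAT3-MER cells and 0 were higher, where 3.45% of all probe sets passed in either direction. The median log2 difference of the 19 (STAT3-MER minus WT, on the scale of log2(signal + 32)) was -0.10, against 0.01 for all probe sets, with 8 above and 11 below 0. The signals of the groups did not overlap for 1 probe set, that of Lefty2, which was lower in STAT3-MER cells; over the chips 3.63% of the probe sets were lower without overlap and 4.5% were higher. The criteria of the study's methods (a ratio of means over 1.5, a difference over 100 and p under 0.1) were applied to deposited signals. They were met by 0 of the 19, and by 1.1% of all probe sets in the higher and 0.872% in the lower direction. The study applied its criteria to dChip values, another measure of signal from the same arrays, and with these listed the Lefty2 probe set as lower. The smallest two-sided p that an exact permutation test allows with 3 dishes in each group is 0.1.

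**Figure D1:**
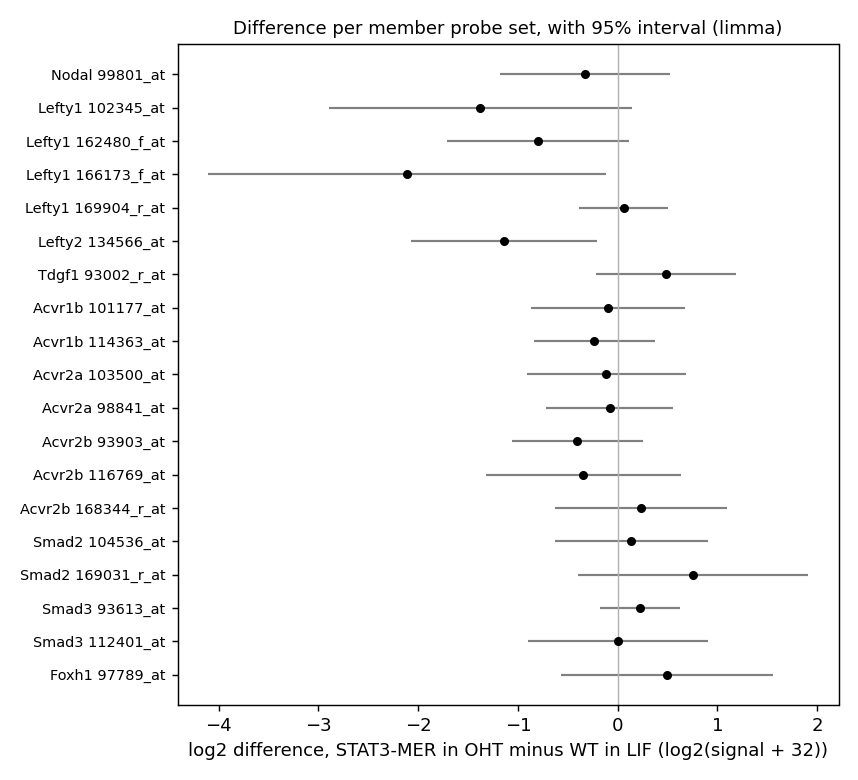
Difference between STAT3-MER cells in OHT and WT cells in LIF for each of the 19 probe sets, as log2(signal + 32), with the 95% interval of the limma fit over 3 dishes per group. The intervals of Lefty1 166173_f_at and Lefty2 134566_at lie below 0 before adjustment for the number of probe sets, and the other 17 hold 0.

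The ligand Nodal was read by 1 probe set (99801_at, U74Av2). Its signal was 633, 1316 and 1327 in WT dishes 1 to 3 and 1253, 559 and 779 in STAT3-MER dishes 1 to 3. The groups overlapped throughout, and each held dishes at both ends of the range: WT dishes 2 and 3 and STAT3-MER dish 1 were high, and WT dish 1 and STAT3-MER dish 2 were low. The means were 1092 ± 397 and 864 ± 355 (SD, n = 3 each), a log2 difference of -0.33 (standard error 0.37, 95% interval -1.18 to 0.52). The spread between dishes of one group, 2.09-fold in WT and 2.24-fold in STAT3-MER cells, was thus larger than the ratio of the means of 1.26.

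The genes whose signal followed that of Nodal most closely over the 6 dishes of U74Av2 were Slc7a7, which encodes an amino acid transporter subunit, Mrpl16, a protein of the mitochondrial ribosome, and Trh, the precursor of thyrotropin-releasing hormone. Their Pearson correlations over these 6 dishes were 0.996, 0.993 and 0.992, as a description and the highest of 5033 probe sets compared, of which 158 were over 0.9. Slc7a7 read 1593, 1766 and 1658 in the 3 dishes with high Nodal signals and 252, 231 and 514 in the other 3. Its high and low signals lay in dishes of both groups, as for Nodal, which follows from the choice of Slc7a7 by likeness to Nodal. Markers of undifferentiated ES cells did not share one course over these dishes. Of their 8 probe sets on U74Av2 that are not dim, 3 had their lowest 2 signals in WT dish 1 and STAT3-MER dish 2, the dishes with the lowest Nodal signals (Pou5f1 103075_at, Utf1 and Dppa4), 4 had their highest 2 signals there (both of Nanog, Sox2 and Fgf4), and 1 did neither (Zfp42). The transcription factor Pou5f1 read 2157 and 3562 in these dishes and 5054 to 8348 in the other 4. Nanog, another such factor, read 14179 and 11228 in them and 7035 to 10689 in the other 4 (161072_at). The fibroblast sums of the 3 dishes with high Nodal signals were 15090, 34426 and 9212, and those of the other 3 were 30923, 37991 and 24706, and their part in the pattern was not tested.

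**Figure D2:**
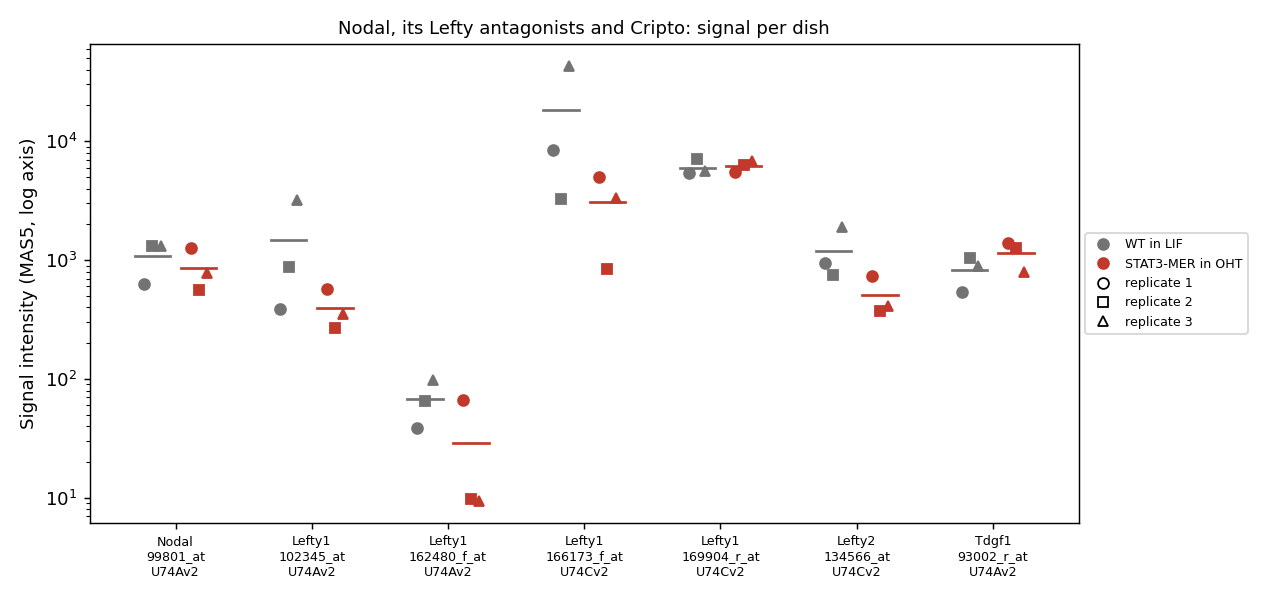
Signal intensity (log axis) of the probe sets of Nodal, Lefty1, Lefty2 and Tdgf1 in each dish, with a line at the mean of the 3 dishes; grey is WT in LIF, red is STAT3-MER in OHT, and the symbol gives the replicate number on that chip. On U74Av2 and on U74Cv2, WT dish 3 of that chip lies highest on 2 Lefty probe sets each (102345_at and 162480_f_at on U74Av2, 166173_f_at and 134566_at on U74Cv2), and 169904_r_at of Lefty1 shows almost no spread.

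Cripto (Tdgf1), the membrane-bound co-receptor of Nodal, was read by 1 probe set (93002_r_at, U74Av2), with 537, 1047 and 897 in the WT dishes and 1405, 1263 and 802 in the STAT3-MER dishes. STAT3-MER dishes 1 and 2 lay above every WT dish, while STAT3-MER dish 3 lay between the WT dishes. The log2 difference was 0.48 (standard error 0.31, 95% interval -0.22 to 1.18). Without STAT3-MER dish 3 it was 0.72, and the probe set then met the criteria of the study's methods, the only member probe set to do so with any dish left out. The suffix _r marks a probe set whose design rules were relaxed, so that related transcripts may add to its signal.

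Since the groups differ in a form of STAT3, and Nodal signals act through Smads and Foxh1, the start regions of these genes were searched for the letters of the respective motifs. The RefSeq table for GRCm38.p6 gave a window of 300 bases for 6 members (Nodal, Tdgf1, Acvr1b, Acvr2a, Acvr2b and Smad3). It runs from 250 before to 50 after the gene start, except for Acvr2b, whose window lies inside the gene as the gene table of that annotation bounds it. The STAT palindrome TTCNNNGAA and the Foxh1 core AATCCACA, each read on both strands, were in none of the 6, and in 8.3% and 0.855% of the 32851 promoters of the table. The Smad box CAGAC was found once each in Tdgf1, Acvr2a and Acvr2b, where 49.6% of all promoters hold it on either strand, and it overlapped no other motif. The start regions of the ligand and of its co-receptor are shown, since these form the signal that the Lefty proteins block, with the CAGAC match in capitals. Nodal lies on the plus strand (chr10:61417722-61418021) and Tdgf1 on the minus strand (chr9:110946109-110946408).
Nodal: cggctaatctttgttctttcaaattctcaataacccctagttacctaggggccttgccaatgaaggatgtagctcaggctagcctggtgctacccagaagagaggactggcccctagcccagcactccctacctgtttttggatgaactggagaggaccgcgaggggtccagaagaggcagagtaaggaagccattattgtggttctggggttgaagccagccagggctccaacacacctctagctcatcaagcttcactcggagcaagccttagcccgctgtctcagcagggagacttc
Tdgf1: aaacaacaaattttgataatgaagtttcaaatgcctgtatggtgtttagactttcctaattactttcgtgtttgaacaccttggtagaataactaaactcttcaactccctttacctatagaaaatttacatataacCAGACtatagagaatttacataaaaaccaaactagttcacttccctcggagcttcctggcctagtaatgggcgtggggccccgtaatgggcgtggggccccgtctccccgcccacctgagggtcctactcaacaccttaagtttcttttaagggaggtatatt
The Nodal window had no match and a GC content of 54.0%, and that of Tdgf1 had 1 match, starting at -113 from the gene start, and a GC content of 41.7%. The matches are letters in a window and were not tested for binding.

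Lefty1 had the widest spread between dishes of all members. On 102345_at (U74Av2) it read 385, 874 and 3197 in the WT dishes and 570, 270 and 353 in the STAT3-MER dishes. WT dish 3 stood far above the rest, WT dish 1 lay below STAT3-MER dish 1, and the groups overlapped. The means were 1485 ± 1502 and 397 ± 155 (SD, n = 3 each), 3.74-fold higher in WT cells, with a log2 difference of -1.38 (standard error 0.66, 95% interval -2.90 to 0.14). The highest dish was 11.8-fold above the lowest, a wider range than in 99.1% of the 5549 probe sets of the chip that are not dim.

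A second Lefty1 probe set, 166173_f_at on U74Cv2, read 8371, 3290 and 42842 in the WT dishes and 5044, 840 and 3318 in the STAT3-MER dishes. On this chip WT dish 3 was the highest by a wide margin and STAT3-MER dish 2 the lowest, while WT dish 2 lay below STAT3-MER dishes 1 and 3. The log2 difference was -2.11 (standard error 0.89, 95% interval -4.11 to -0.11), the most negative of all 36701 probe sets, and it did not pass the test after adjustment. The range over the dishes was 51.0-fold, wider than in 99.95% of the 6328 probe sets of that chip that are not dim. Without WT dish 3 of the chip the ratio of the WT mean to the STAT3-MER mean was 1.90 in place of 5.92, and on 102345_at, without WT dish 3 of U74Av2, it was 1.58 in place of 3.74. The suffix _f marks a probe set that can bind several related transcripts.

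The remaining Lefty1 probe sets were dim or almost level between the groups. The dim 162480_f_at (U74Av2) read 38.5, 65.9 and 98.4 in the WT dishes and 67.1, 9.78 and 9.40 in the STAT3-MER dishes, a log2 difference of -0.80 (standard error 0.40). On 169904_r_at (U74Cv2) the signals were 5385, 7053 and 5594 in the WT dishes and 5516, 6351 and 6876 in the STAT3-MER dishes. These 6 values overlapped fully and lay within 1.31-fold of each other, a narrower range than in all but 2.21% of the probe sets of the chip that are not dim. The log2 difference was 0.06 (standard error 0.20, 95% interval -0.39 to 0.51), so the probe sets that the annotation gives to Lefty1 did not agree: 3 had a lower mean in STAT3-MER cells and 1 did not. Which of them reads the Lefty1 transcript alone was not tested.

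Lefty2 was read by 134566_at (U74Cv2), with 946, 744 and 1915 in the WT dishes and 733, 373 and 410 in the STAT3-MER dishes. Every STAT3-MER dish lay below every WT dish, with WT dish 2 and STAT3-MER dish 1 almost level. The means were 1202 ± 626 and 505 ± 198 (SD, n = 3 each), 2.38-fold higher in WT cells, with a log2 difference of -1.14 (standard error 0.41, 95% interval -2.08 to -0.21). It did not pass the test after adjustment over all probe sets (limma, adjusted p = 0.9996). Without WT dish 3 the log2 difference was -0.76 and the ratio of the means 1.67. The study picked this probe set from the same arrays, by its criteria on dChip values, as one that was lower in STAT3-MER cells. Its difference here is thus not independent evidence of that direction. On the deposited signals it met the criteria for the ratio and the difference of the means, but not the one for p. The dChip values were not used here, and the cause of the unlike outcomes was not tested. The study also reported lower Lefty2 RNA in STAT3-MER cells by real-time PCR, which is not part of the data used here.

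On U74Cv2, 166173_f_at of Lefty1 and 134566_at of Lefty2 had WT dish 3 as the highest of the 6 and WT dish 1 as the next. STAT3-MER dish 2 was the lowest, and the STAT3-MER dishes stood in the same order in both. Since 166173_f_at can bind several related transcripts, it may read Lefty2 transcripts as well, which was not tested. The other Lefty1 probe set of the chip, 169904_r_at, had WT dish 2 as the highest and WT dish 1 as the lowest. On U74Av2, 102345_at of Lefty1 had its 3 highest signals in the same dishes as Nodal, which were WT dishes 3 and 2 and STAT3-MER dish 1, and its lowest in STAT3-MER dish 2 as well. These are shared dishes within a chip and no test was made of them. The probe sets closest to 166173_f_at of Lefty1 over the 6 dishes were those of Cnot6l, Incenp and Uchl3, with Pearson correlations of 0.979, 0.969 and 0.969, as a description over 4331 probe sets. For Lefty2 they were Gm1070, Mcu and Mapk9, with 0.973, 0.959 and 0.952 over 4332 probe sets. Correlations over 0.9 were found for 41 probe sets with 166173_f_at and for 26 with 134566_at. All 6 named probe sets had their highest signal in WT dish 3, which follows from their choice by likeness to probe sets highest there.

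**Figure D3:**
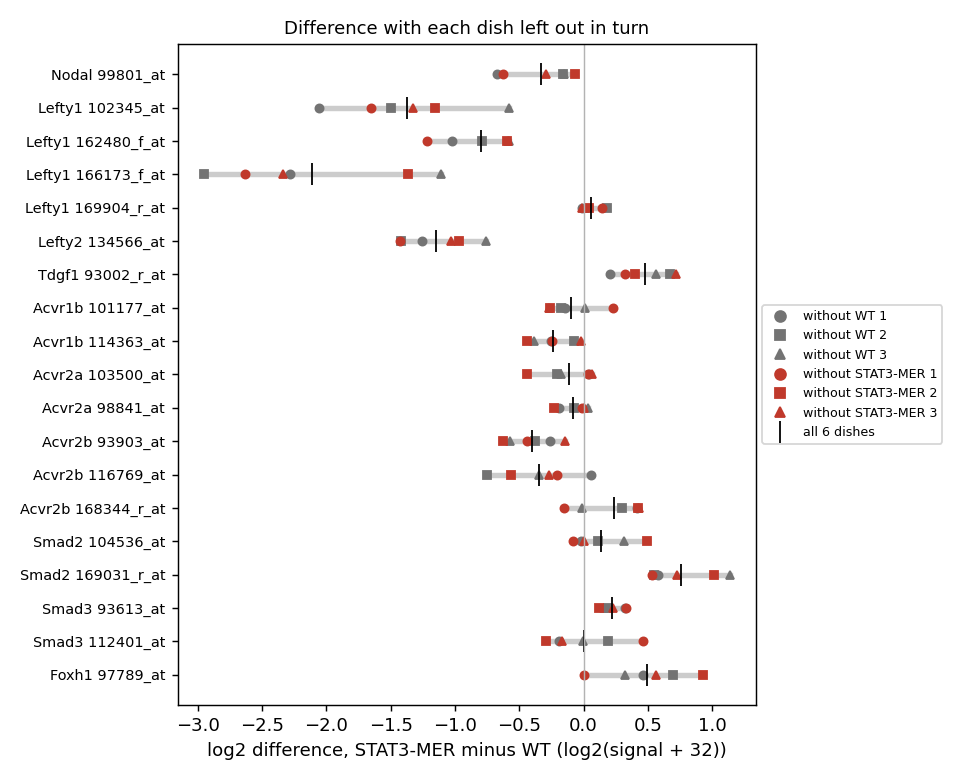
Log2 difference (STAT3-MER minus WT) of each probe set with all 6 dishes (black bar) and with each dish left out in turn (symbols; grey for a WT dish, red for a STAT3-MER dish). Lefty1 102345_at, Lefty1 166173_f_at and Lefty2 move closest to 0 without WT dish 3 of their chip, to -0.58, -1.10 and -0.76, and stay below 0 with any dish left out.

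Acvr1b (ALK4), the type I receptor of Nodal and activin, was read by 114363_at (U74Bv2) at 4118, 5283 and 3423 in the WT dishes and 3622, 4768 and 2632 in the STAT3-MER dishes. In each group dish 2 was the highest and dish 3 the lowest, and the groups overlapped. The log2 difference was -0.24 (standard error 0.27, 95% interval -0.84 to 0.37). The dim 101177_at (U74Av2) ranged from 53.7 to 79.0 in WT and from 23.7 to 79.8 in STAT3-MER dishes.

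The type II receptors overlapped as well. Acvr2b was read by 93903_at (U74Av2) at 1255, 1062 and 809 in the WT dishes and 809, 1055 and 528 in the STAT3-MER dishes. WT dish 1 was the highest and STAT3-MER dish 3 the lowest, and the log2 difference was -0.40 (standard error 0.28, 95% interval -1.06 to 0.25). Its dim probe sets 116769_at and 168344_r_at had log2 differences of -0.34 and 0.23, each with a standard error of 0.38 or more. Acvr2a was read by dim probe sets only, both on U74Av2. Of these, 103500_at read 248, 168 and 176 in the WT dishes and 140, 298 and 131 in the STAT3-MER dishes, a log2 difference of -0.11 (standard error 0.35), and 98841_at stayed between 57.6 and 91.8 in all dishes. No type II receptor probe set had groups that were apart.

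Smad2, which the activated receptor phosphorylates, was read by 104536_at (U74Av2) at 529, 641 and 859 in the WT dishes and 1003, 437 and 892 in the STAT3-MER dishes. STAT3-MER dishes held both the highest and the lowest signal, and the log2 difference was 0.14 (standard error 0.33, 95% interval -0.63 to 0.90). The dim 169031_r_at (U74Cv2) read 47.3, 43.8 and 139 in the WT dishes and 201, 87.8 and 146 in the STAT3-MER dishes, a log2 difference of 0.76 (standard error 0.51), the most positive of the 19. WT dish 3 was the WT dish that overlapped with the STAT3-MER range there.

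Smad3, the other receptor-activated Smad of this branch, was read by 112401_at (U74Bv2) at 521, 908 and 683 in the WT dishes and 348, 1049 and 873 in the STAT3-MER dishes. Dish 2 was the highest and dish 1 the lowest in both groups, and the log2 difference was 0.00 (standard error 0.40, 95% interval -0.90 to 0.90). The dim 93613_at (U74Av2) ranged from 8.72 to 18.8 in WT and from 12.9 to 28.3 in STAT3-MER dishes. Foxh1, the forkhead factor that brings Smads to Nodal target genes, was read by the dim 97789_at (U74Av2) only, at 37.0, 63.1 and 24.9 in the WT dishes and 170, 23.9 and 60.8 in the STAT3-MER dishes. Both the highest and the lowest signal came from STAT3-MER dishes, and without STAT3-MER dish 1 the log2 difference of 0.50 (standard error 0.46) was 0.00.

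**Figure D4:**
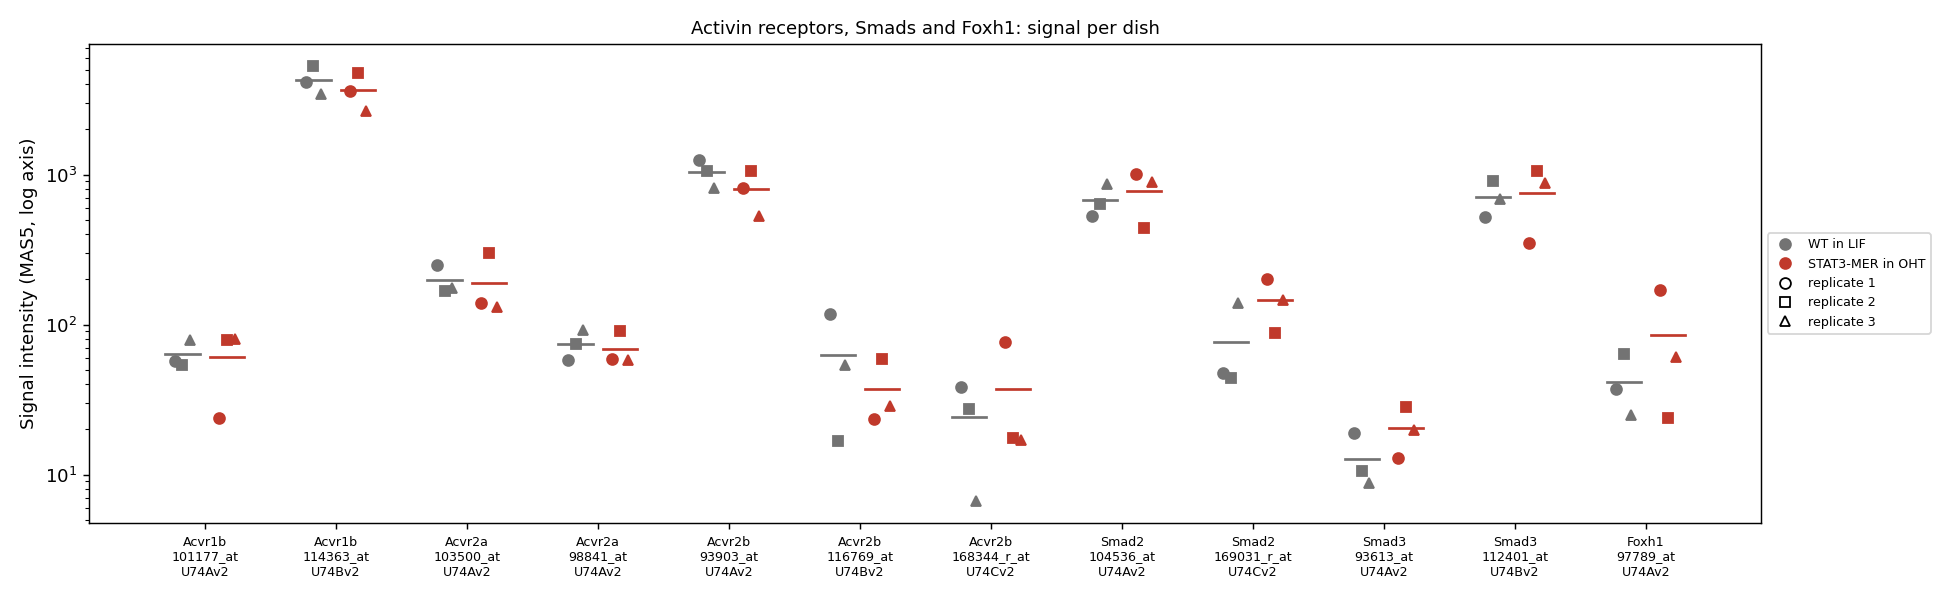
Signal intensity (log axis) of the probe sets of the activin receptors, the Smads and Foxh1 in each dish, with a line at the mean of the 3 dishes; grey is WT in LIF, red is STAT3-MER in OHT. The groups overlap in all 12 probe sets, and 8 of the 12 are dim, with a mean signal under 200.

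Of the 11 member probe sets on U74Av2, WT dish 3 was the highest of the 6 dishes in 4 and STAT3-MER dish 1 in 3, while STAT3-MER dishes 2 and 3 were the lowest in 4 each. Of the 5 on U74Cv2, WT dish 3 and STAT3-MER dish 1 were the highest in 2 each, and STAT3-MER dish 2 was the lowest in 2. For the genes read by several probe sets the sign of the difference could depend on the probe set. Acvr2b had 2 below and 1 above 0, and Lefty1 had 3 below and 1 above 0. Those above 0 were small beside their error: 0.23 (standard error 0.38) on the dim 168344_r_at and 0.06 (standard error 0.20) on 169904_r_at. Both changed sign with some dishes left out. The members with 1 probe set (Nodal, Lefty2, Tdgf1 and Foxh1) have no such second reading.

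The rest of the pathway was taken from a list of 38 further genes, of which 32 were measured, by 62 probe sets. None of the 62 passed the test after adjustment (limma), and at an unadjusted p under 0.05 there were 0 higher and 1 lower. The median log2 difference was 0.02, with 34 above and 28 below 0. Without overlap of the groups, 4 probe sets were higher and 1 was lower in the transgenic cells, beside the 4.5% and 3.63% of all probe sets.

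Smad4, the partner that Smad2 and Smad3 share, was the one lower without overlap, on 166540_at (U74Cv2). It read 986, 1167 and 922 in the WT dishes and 517, 758 and 599 in the STAT3-MER dishes, a log2 difference of -0.70 (standard error 0.28, limma, adjusted p = 0.9996). Every WT dish lay above every STAT3-MER dish, and it was the pathway probe set that met the criteria of the study's methods. The other Smad4 probe set, 160440_at (U74Av2), had a log2 difference of 0.02 (standard error 0.20), with 1798, 2246 and 1665 in the WT and 2140, 2041 and 1607 in the STAT3-MER dishes, which overlapped.

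The 4 higher ones were regulators inside the cell, the role that holds 30 of the 62 probe sets of the list. Trim33, which binds activated Smad2 and Smad3, read 214, 183 and 180 in the WT dishes and 252, 487 and 395 in the STAT3-MER dishes on 113059_at (U74Bv2), a log2 difference of 0.83 (standard error 0.38), while its other probe set, 110374_at, gave -0.01. Smad7, an inhibitory Smad, read 680, 611 and 579 in the WT dishes and 738, 961 and 746 in the STAT3-MER dishes (92216_at, U74Av2), a log2 difference of 0.36. Drap1, which restrains Foxh1 in the mouse embryo, had a log2 difference of 0.36 on 96617_at. Smurf2, a ubiquitin ligase that acts on Smads, had 0.86 on the dim 168727_at and values from -0.46 to 0.04 on its other probe sets. Smad4 and Trim33 were named because these probe sets had the 2 smallest p-values of their role. Smad7, Drap1 and Smurf2 were chosen with their values in view. The differences shown are thus those by which the genes were picked. None of the 4 higher ones passed the test after adjustment (limma, adjusted p of at least 0.9996).

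Among the other ligands, Inhba, the βA subunit of activin, read 372, 574 and 609 in the WT dishes and 761, 735 and 554 in the STAT3-MER dishes (100277_at, U74Av2), with STAT3-MER dish 3 inside the WT range and a log2 difference of 0.39 (standard error 0.25). Gdf3, a Nodal-related ligand of ES cells, had log2 differences of 0.07 on 92476_at (standard error 0.26) and 0.17 on 170287_at (standard error 0.66). Its dim 161144_r_at gave 0.20. Among co-receptors, Tgfbr3 (betaglycan) had 0.26 on the dim 102637_at and -0.44 on the dim 114149_at, and 0.04 and 0.35 on 113920_at and 129156_at, which are not dim. The convertases that cut the Nodal precursor had negative differences on all 3 of their probe sets, and their groups overlapped. The values were -0.39 and, on the dim 101196_at, -0.30 for Pcsk6 (PACE4), and -0.16 for Furin. Of the inhibitors outside the cell, Cer1 (Cerberus) had 0.51 on a dim probe set. Tmeff1, which binds Cripto, had -0.37 on 112799_at and -0.05 on the dim 160472_r_at. Of the target genes, which mark mesoderm and endoderm, 7 of 8 probe sets were dim, among them Gsc with 0.63 and Foxa2 with -0.49. Genes of the list without a probe set of their own included Gdf1, Zfyve9, Mixl1, T and Otx2.

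**Figure D5:**
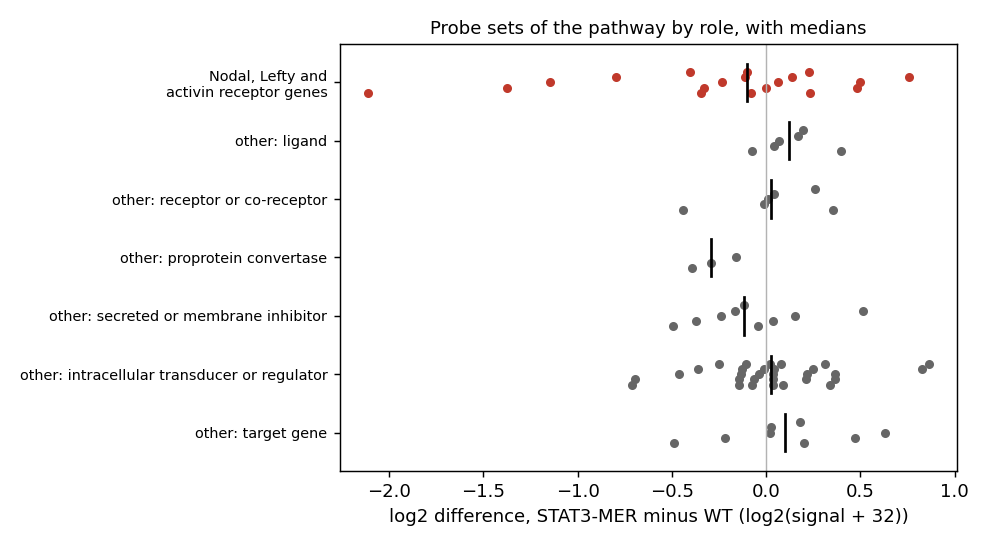
Log2 difference (STAT3-MER minus WT, log2(signal + 32)) of each probe set of the 10 genes (red) and of the other pathway genes by role (grey), with the median of each row as a black line. The medians lie between -0.30 and 0.12, and the 3 points below -1 are those of Lefty1 and Lefty2.

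Markers of other cell types were read beside these genes. The 14 probe sets of 9 of the 10 fibroblast markers all had a lower mean log2 signal in STAT3-MER cells, with a median difference of -0.21, and 0 passed the test (limma; 0 at an unadjusted p under 0.05). Lumican (Lum), one of them, read 1376, 711 and 2141 in the WT dishes and 445, 1494 and 979 in the STAT3-MER dishes. Of the 13 fibroblast probe sets on U74Av2, 6 were highest in WT dish 3, among them Lum, 5 in STAT3-MER dish 2, among them Col1a2 101130_at, and 2 in other dishes, while 10 were lowest in STAT3-MER dish 1. Primitive endoderm markers had a median of 0.13 over 20 probe sets, and their summed signal on U74Av2 was 1572 to 4321 in WT and 2095 to 3405 in STAT3-MER dishes. Mesoderm markers had -0.07 over 7 probe sets, trophectoderm markers -0.06 over 14, neural and ectoderm markers 0.02 over 12, and markers of undifferentiated ES cells 0.11 over 14. The part of other cells in the Lefty and Nodal values was not tested.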

How the data were processed

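RNA of 3 WT and 3 STAT3-MER dishes was amplified in 2 rounds, labelled and hybridized to 3 chips. The authors deposited 1 linear signal intensity per probe set and array, without detection calls, scaled to one trimmed mean. The labels name MAS5, the version and the genome build are not given in the sources used here, and the dChip values of the study were not used. The arrays of a chip were brought to their mean trimmed mean, without the outer 2% at either end, a change of almost nothing. Log2(signal + 32) was compared chip by chip with limma 3.58.1 (two-sided; lmFit, then eBayes with a mean-variance trend; R 4.3.3), with Benjamini-Hochberg adjustment over 36701 probe sets, 198 controls being left out. The pseudocount makes differences of dim probe sets look smaller. The number of arrays limits the precision. Figures were drawn with matplotlib 3.10.9.

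The annotation gave 1 gene for 29131 probe sets, several for 724 and none for 6846, and 0 of those with several name one of the 10 genes. Symbols were updated through RefSeq (29044 matched). 1 STAT3-MER array of U74Av2 has no replicate number in its label and was given the number left over. The methods' t-test, whose form is not stated, was run with unequal variances. The genes and lists were chosen with earlier results of these data known. All probe sets of the 10 genes are named, with the 2 of smallest p in each role of the pathway list, the 3 genes most like Nodal, Lefty1 and Lefty2, and marker genes. The alternatives were the deposited values unscaled, median or quantile scaling, a pseudocount of 8 or 100, no dim probe sets, no trend, adjustment by chip, the replicate number as a block, leaving out each dish, and other forms of the methods' t-test and criteria.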

Additional observations from a re-analysis of the deposited data

How the results depend on the processing

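No member probe set and no probe set of the pathway list passed the adjusted threshold under any alternative run. Of 143 log2 differences of member probe sets under other settings, 140 kept their sign, and 3 turned: Smad3 112401_at to -0.0104 with quantile scaling and to -0.0044 with a pseudocount of 8, and Lefty1 169904_r_at to -0.0159 with median scaling. With a dish left out, 18 of 114 turned, in 8 probe sets: from -0.0137 to 0.18 for Lefty1 169904_r_at, -0.27 to 0.23 for Acvr1b 101177_at, -0.44 to 0.0682 for Acvr2a 103500_at, -0.23 to 0.0367 for Acvr2a 98841_at, -0.75 to 0.0609 for Acvr2b 116769_at, -0.15 to 0.43 for Acvr2b 168344_r_at, -0.0796 to 0.49 for Smad2 104536_at and -0.29 to 0.46 for Smad3 112401_at. The count over all probe sets was 1 to 2 with a dish left out (2 without WT replicate 3). With the methods' t-test after Benjamini-Hochberg adjustment it was 0, where limma with the same adjustment gave 1. Without adjustment, limma gave 1268 at p under 0.05. The member probe sets past the methods' criteria were 0 to 1 with a dish left out, the 1 being Tdgf1 without STAT3-MER replicate 3. The cause of these changes was not tested.

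With the replicate number as a block, 0 member probe sets and 1 of all probe sets passed, as without it. The block used the numbers as labelled. On U74Av2 it thus joined dishes whose deviations ran against each other for numbers 1 and 2, and it cannot show what another pairing would give. The numbers were not taken as pairs in the main fit. Deviations of same-numbered dishes correlated at 0.07 to 0.21 on U74Bv2 and U74Cv2, and those of other numbers at -0.15 to -0.02. On U74Av2 same numbers gave -0.30, -0.33 and 0.29. There WT replicate 1 went with STAT3-MER replicate 2 (0.46), and WT replicate 2 with STAT3-MER replicate 1 (0.41). A fit with the WT numbers exchanged on U74Av2 was not run. Variation that such pairs may share counts as error in the main fit. Dim probe sets, 9 of the 19, give the least certain values.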
